A study of Mus musculus with 4 samples.

Results

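The genes described here encode the nuclear part of the respiratory chain and of ATP synthase in the mouse kidney medulla. They were taken from a table of 27179 gene rows by their symbols: the Ndufa, Ndufb, Ndufc, Ndufs and Ndufv subunits of complex I, Sdha to Sdhd, the Uqcr genes, the Cox4 to Cox8 genes, the Atp5 genes, Cyc1 and Cycs. This gave 89 genes, and 5 pseudogene rows with such names were left out. The 2 KO-labelled libraries came from medulla of mice that carried the Actr3-fl/fl alleles with the Cdh16-Cre transgene, and the 2 WT-labelled libraries came from wild type controls without a further description of their alleles. All 4 animals were at postnatal day 14 on a mixed C57BL/6 background, and each library was 1 animal by the extraction protocol. The Actr3 product, Arp3, belongs to the Arp2/3 complex, from which branched actin filaments grow, and the Cdh16 promoter drives Cre in tubule epithelium, so endothelial, interstitial and immune cells of the same tissue are not its target. Actr3 itself had 12587 and 12480 normalized read counts in the KO-labelled libraries, against 8065 and 7275 in the WT-labelled libraries. It was higher, not lower, under the KO label, and a count over the whole gene does not show whether an exon was deleted. All directions below therefore rest on the labels.

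The respiratory chain of the inner mitochondrial membrane passes electrons from NADH (complex I) and succinate (complex II) through complex III and cytochrome c to oxygen at complex IV, and ATP synthase uses the proton gradient that results. Most subunits are encoded in the nucleus and imported, while a small set is encoded by mitochondrial DNA. In the kidney medulla the thick ascending limb is rich in mitochondria, because its salt reabsorption depends on the sodium pump. Several subunits of complex IV and the c subunit of ATP synthase exist as isoforms from separate genes that can take the same place in the enzyme.

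Nearly all of these genes were lower in the KO-labelled libraries. Of the 82 members with a mean of at least 10 normalized counts over the 4 libraries, 74 were lower, 1 was higher and 7 did not pass the test (limma on log2(value + 1), Benjamini-Hochberg adjusted over 16253 genes, threshold 0.05). In the same test 24.9% of all genes were lower and 26.3% were higher, so both directions were common in these libraries. The members' median log2 difference, KO-labelled minus WT-labelled, was -0.81, with quartiles of -0.97 and -0.60, beside a median of 0.00291 and quartiles of -0.42 and 0.40 over all genes tested. The values of both KO-labelled libraries lay below both WT-labelled ones for 77 of the 82 tested members and above them for 1, where 38.7% and 39.8% of all genes tested did so. In sum the 89 genes took 0.968% and 0.902% of the KO-labelled libraries, against 1.61% and 1.83% of the WT-labelled libraries.

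**Figure D1:**
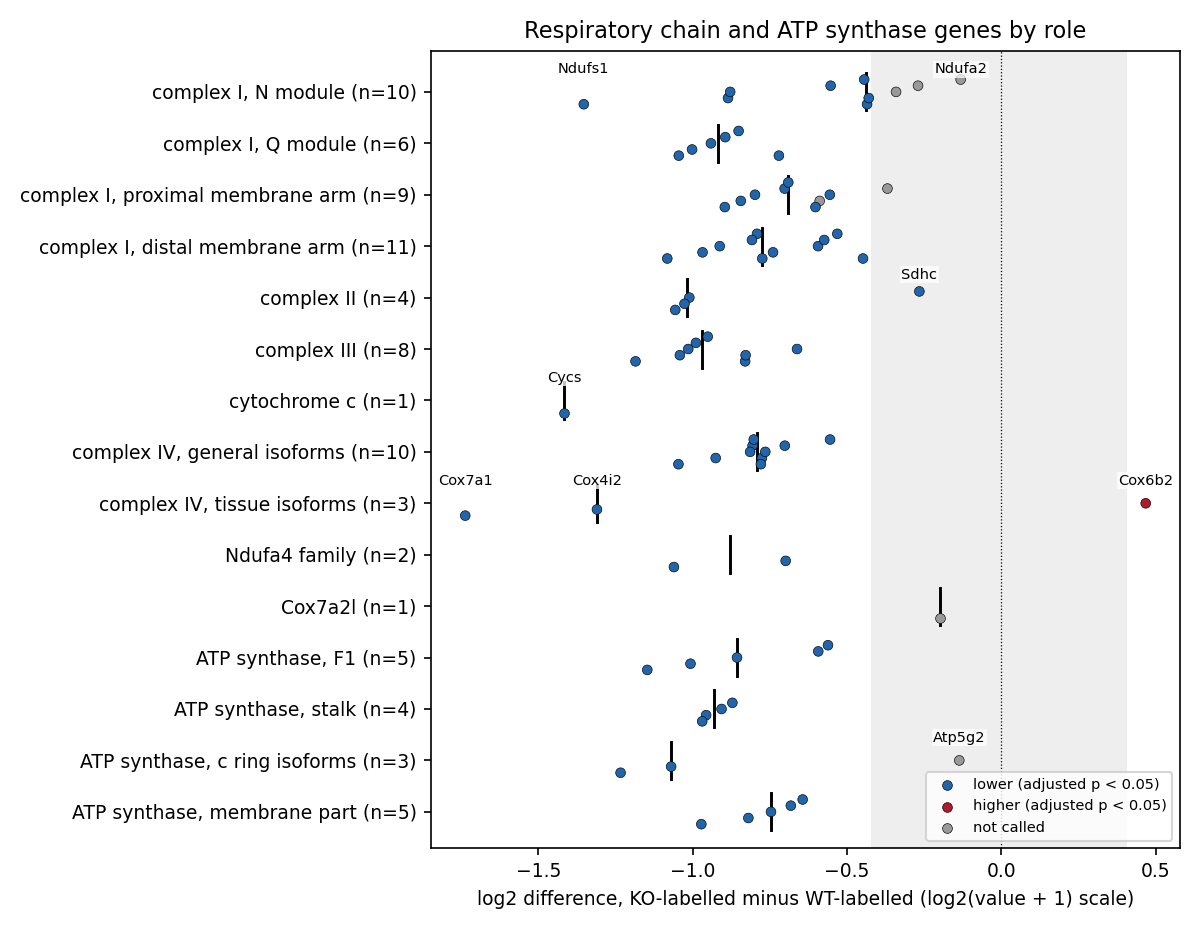
Log2 difference (KO-labelled minus WT-labelled, log2(value + 1) scale) of the 82 tested members, grouped by complex and role. Each point is 1 gene, black bars are medians, the grey band spans the quartiles of all 16253 genes tested (-0.42 to 0.40), and nearly all points lie left of it, with Cox6b2 alone to its right.

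The replicates of a group also differed in a shared way over these genes. KO replicate 1 was above KO replicate 2 in 74 of the 82 tested members, with a median log2 gap of 0.11. WT replicate 2 was above WT replicate 1 in 79, and the median of WT replicate 1 minus WT replicate 2 was -0.21. The groups still did not overlap for the 77 members above, but the members of a library moved together and are not independent readings. Without any 1 library, between 71 and 77 members were lower.

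**Figure D2:**
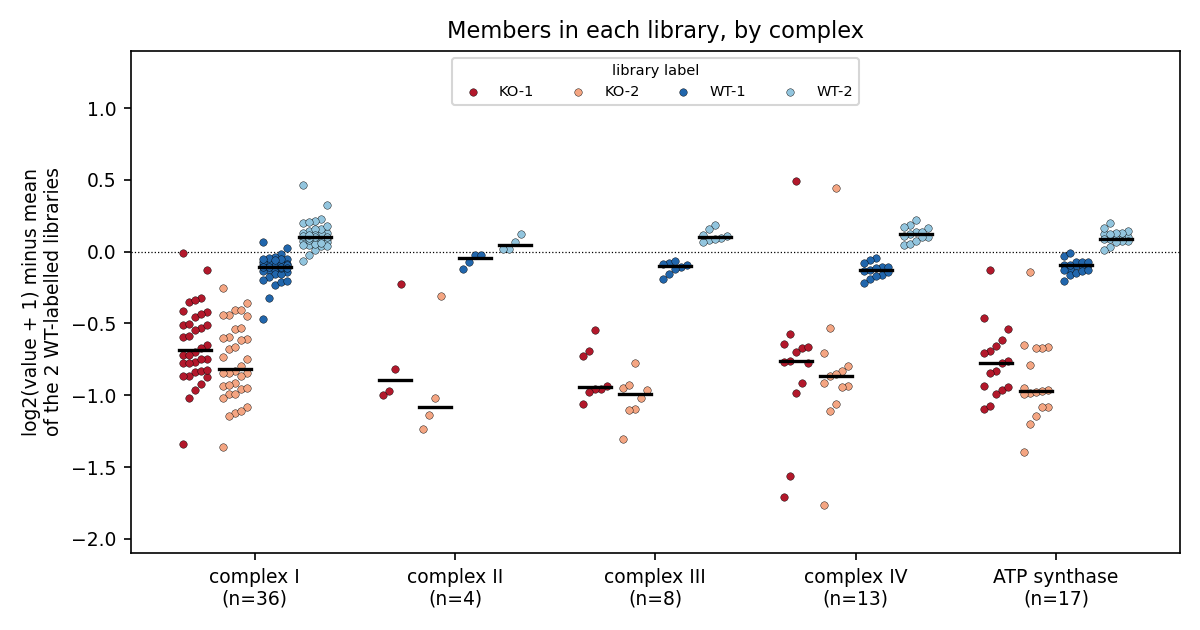
Log2(value + 1) of each tested member in each library, relative to the mean of the 2 WT-labelled libraries, by complex. Each point is 1 gene in 1 library and bars are medians; within each complex the medians of both KO-labelled libraries lie below those of both WT-labelled ones, and WT replicate 2 sits above WT replicate 1.

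Markers of the tissue's cell types differed in the same libraries. The summed level of 10 thick ascending limb markers was 264398 and 185971 normalized counts in the KO-labelled libraries, against 504590 and 522382 in the WT-labelled libraries. Of the 10, 8 were lower, Cldn16 was higher (log2 difference 0.28) and Umod was not called. Umod made up most of the KO-labelled sums, with 203680 and 138033 counts, against 136828 and 143709 in the WT-labelled libraries. Slc12a1, among the lower ones, had 39222 and 28751, against 239881 and 241824. Markers of proximal tubule were lower in 9 of 10 (sums 8669 and 17600, against 36037 and 47888), those of principal cells and of intercalated cells in 8 of 8 each, and those of endothelium in 8 of 8. All 10 macrophage markers were higher, at sums of 58953 and 58057, against 11963 and 11626, and so were all 8 markers of injured tubule. Of 8 fibroblast and pericyte markers 4 were higher, 1 was lower and 3 were not called, at sums of 396753 and 457705, against 149587 and 156173. Most of each sum came from the collagen gene Col3a1 (261051 and 308699, against 93785.5 and 92680). The collagen gene Col1a1 had the highest log2 difference, 2.59. Those not called were Pdgfra, Pdgfrb and Dcn, with log2 differences of -0.10, 0.14 and 0.33, and the lower one was Rgs5 (-1.38). All 6 urothelium markers were lower, with a median log2 difference of -2.33, and of 3 tested T and B cell markers 1 was higher and 2 were not called. Of 8 thin limb markers 6 were lower, 1 was higher and 1 was not called, at sums of 70723 and 51774, against 138151 and 168402. The higher one, the claudin gene Cldn4, had 20873 and 14780 counts in the KO-labelled libraries, against 2662 and 3191 in the WT-labelled libraries. None of these markers was at 0 in all libraries. In bulk tissue, fewer cells of a type and less RNA per cell cannot be told apart, and the part of these markers in the differences below was not tested.

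Complex I, the NADH dehydrogenase, had 38 members, of which 36 were tested. Of these 31 were lower, none was higher, and the median log2 difference was -0.73. Its 7 nuclear core subunits, among them the carriers of the flavin and the iron-sulfur clusters, were lower in every case, with a median of -0.94. The 29 tested subunits around the core had a median of -0.60 and 24 were lower; the difference between core and other subunits was not tested. Ndufs1, the large iron-sulfur subunit of the NADH-oxidizing N module, had 4681 and 4606 normalized counts in the KO-labelled libraries, against 11736 and 11978 in the WT-labelled libraries (log2 difference -1.35, SE 0.07, adjusted p = 2.24e-05). The replicates of each group lay close together and the groups were far apart, and this was the largest fall within complex I. Ndufv1, which binds NADH and the flavin, had 5342 and 4605 counts in the KO-labelled libraries, against 8355 and 10047 in the WT-labelled libraries (log2 difference -0.89, SE 0.12, adjusted p = 0.000864). Ndufv2, its partner with an iron-sulfur cluster, had 4507 and 4277 counts in the KO-labelled libraries, against 7858 and 8291 in the WT-labelled libraries (log2 difference -0.88, SE 0.08, adjusted p = 0.000150).

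The Q module, where ubiquinone is reduced, was lower in 6 of 6 subunits, with a median of -0.92. Ndufs7, a core subunit which holds the last iron-sulfur cluster before the quinone, had 2258 and 1894 counts in the KO-labelled libraries, against 3053 and 3803 in the WT-labelled libraries (log2 difference -0.72, SE 0.13, adjusted p = 0.00395). Ndufs3 and Ndufs8, also core subunits, had log2 differences of -0.94 and -1.002 (adjusted p = 0.000578 and 0.000584, limma). Their KO-labelled values lay below both WT-labelled values, as for all of this module. In the membrane arm, 11 of 11 tested subunits of the distal part were lower (median -0.77), from Ndufb10 at -1.08 to Ndufb1 at -0.45. The proximal part was lower in 7 of 9 (median -0.69), from Ndufc1 at -0.90 (adjusted p = 0.000385) to Ndufa3 at -0.37, which did not pass. Ndufb4b and Ndufb4c, 2 further Ndufb4-type genes, had at most 3.98 counts in any library and were not tested.

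The members of complex I that did not pass were accessory subunits. Their WT-labelled replicates lay apart, but so did those of members that passed, such as Ndufb7 (1507 and 2022 counts). Ndufa12, which in bovine and human mitochondria sits beside the N module, had 152 and 149 counts in the KO-labelled libraries, against 138 and 264 in the WT-labelled libraries, so that the KO-labelled values lay between the WT-labelled ones. Ndufa2 had 2119 and 1793, against 1933 and 2359.7, and Ndufa7 had 1743 and 1437, against 1628 and 2236, with overlapping groups in both genes. These 3 belong to the N module, where 7 of 10 were lower and the median was -0.44. Ndufa8 had 592 and 477 counts in the KO-labelled libraries, against 638 and 1001 in the WT-labelled libraries (log2 difference -0.59, SE 0.22, adjusted p = 0.0621). Its groups did not overlap, and it passed without WT replicate 1 (adjusted p = 0.0134), without KO replicate 1 (0.0488), with DESeq2 (0.0247) and with quantile normalization (0.0499). Ndufa3 had 1362 and 1300.1, against 1489 and 1984 (log2 difference -0.37, SE 0.14, adjusted p = 0.0643), and passed without WT replicate 1 (adjusted p = 0.0107) and with DESeq2 (0.0415). Ndufa7 and Ndufa12 passed without WT replicate 1 as well (adjusted p = 0.0416 and 0.0390, limma).

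Ndufa4 was first described as a complex I subunit and is now assigned to complex IV, and Ndufa4l2 is its hypoxia-inducible relative. Ndufa4 had 5569 and 5446 counts in the KO-labelled libraries, against 8157 and 9794 in the WT-labelled libraries (log2 difference -0.70, SE 0.10, adjusted p = 0.00133). Ndufa4l2 had 354 and 379.7, against 656 and 894 (log2 difference -1.06, SE 0.17, adjusted p = 0.00220). Both fell. Hif1a and Epas1, transcription factor genes of the hypoxia response, were lower too, and a link between them and Ndufa4l2 was not tested. Hif1a had 13215 and 12770.5 counts in the KO-labelled libraries, against 27997 and 24053 in the WT-labelled libraries (log2 difference -0.998, SE 0.10, adjusted p = 0.000237), and Epas1, which encodes HIF2-alpha, had a log2 difference of -1.21 (adjusted p = 3.64e-05). In the list of supercomplex and hypoxia-linked factors that holds them, 5 of 5 genes were lower (median -0.49), but 3 without WT replicate 2 and 2 without KO replicate 2.

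Complex II, which oxidizes succinate and also serves the tricarboxylic acid cycle, is wholly nuclear. All 4 subunits were lower, with a median of -1.02 and log2 differences from -1.06 to -0.27. Sdha, the flavoprotein, had 14083 and 13863 counts in the KO-labelled libraries, against 26839 and 29529 in the WT-labelled libraries (log2 difference -1.01, SE 0.09, adjusted p = 0.000130). Sdhb, the iron-sulfur subunit, had 4760.1 and 4245, against 8589 and 10174 (log2 difference -1.06, SE 0.11, adjusted p = 0.000276). The means of these catalytic subunits were 2.02-fold and 2.08-fold lower. The membrane anchors bind ubiquinone. Sdhd had 109 and 82.0 counts in the KO-labelled libraries, against 191 and 197 in the WT-labelled libraries (log2 difference -1.03, SE 0.22, adjusted p = 0.00813). Sdhc, the other anchor, had 5537 and 5219, against 6366 and 6560.3 (log2 difference -0.27, SE 0.08, adjusted p = 0.0235), a 1.20-fold lower mean. Its groups did not overlap, yet the call was lost without any 1 of the 4 libraries (adjusted p between 0.0535 and 0.151), without a variance trend (0.0840) and with a replicate block (0.0661).

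Complex III, the cytochrome bc1 complex, was lower in 8 of 8 tested members, with a median of -0.97. Cyc1, the heme-bearing cytochrome c1, had 5724 and 4839.7 counts in the KO-labelled libraries, against 11104 and 12897 in the WT-labelled libraries (log2 difference -1.18, SE 0.11, adjusted p = 0.000215). Uqcrfs1, the Rieske iron-sulfur protein, had 5674 and 5202, against 10526 and 11878 (log2 difference -1.04, SE 0.09, adjusted p = 0.000154). Both redox subunits had groups that did not overlap. The core proteins Uqcrc1 and Uqcrc2 had log2 differences of -1.01 and -0.99 (adjusted p = 0.000231 and 0.000133, limma). The small subunits Uqcrb, Uqcr10, Uqcrq and Uqcrh had -0.95, -0.83, -0.83 and -0.66, and Uqcrh was the least lowered of the complex. Uqcr11 had 1.97 normalized counts in WT replicate 1 and 0 in the other 3 libraries, so it could not be compared, and why so few reads were assigned to it was not tested.

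Cycs, the mobile cytochrome c that carries electrons from complex III to complex IV, had a lower log2 difference than any tested subunit of complexes I to III, though differences between genes were not tested. Cycs (Entrez 13063, chr6:50562563-50566569) had 814 and 638 counts in the KO-labelled libraries, against 1764 and 2101 in the WT-labelled libraries (log2 difference -1.42, SE 0.15, adjusted p = 0.000322), a 2.66-fold lower mean. The groups lay far apart. Part of its sequence is shared with other genes: 28.5% of the 50-base windows of its transcript also occur in transcripts of other genes.

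Complex IV, cytochrome c oxidase, joins general subunits with isoforms known from particular tissues. All 10 general subunits were lower, with a median of -0.79, from Cox7b at -1.05 to Cox7c at -0.55, which lost its call without WT replicate 2 (log2 difference -0.43, adjusted p = 0.0548, limma). Cox4i1, the general form of the regulatory subunit 4, had 16149.7 and 13379 counts in the KO-labelled libraries, against 22069 and 28691 in the WT-labelled libraries (log2 difference -0.78, SE 0.15, adjusted p = 0.00437). Cox5a, which encodes subunit 5a on the matrix side, had 4868 and 4739.9, against 7979 and 8515 (log2 difference -0.78, SE 0.08, adjusted p = 0.000246). The groups were apart for both genes, and Cox4i1 had the wider spread between replicates. Cox6a1, Cox6b1, Cox7a2 and Cox8a, the general partners of tissue isoforms, had log2 differences of -0.81, -0.80, -0.76 and -0.81, all called lower.

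The tissue isoforms of complex IV held both ends of the whole set. Of the 7, 3 were tested, and 2 of these were lower and 1 was higher. Cox7a1, the heart and muscle form of subunit 7a that is also abundant in brown fat (Entrez 12865, chr7:30184171-30186030), had 97.6 and 94.2 counts in the KO-labelled libraries, against 299 and 346 in the WT-labelled libraries (log2 difference -1.74, SE 0.19, adjusted p = 0.000360). This 3.36-fold lower mean was the largest fall among the 82 tested members. Cox4i2, a form of subunit 4 known from lung and induced by low oxygen, had 53.6 and 76.3 counts in the KO-labelled libraries, against 152 and 169 in the WT-labelled libraries (log2 difference -1.31, SE 0.26, adjusted p = 0.00516). Cox6b2, a form of subunit 6b known from testis, was the only member called higher. It (Entrez 333182, chr7:4751792-4753094) had 425 and 409.8 counts in the KO-labelled libraries, against 279 and 326 in the WT-labelled libraries (log2 difference 0.47, SE 0.15, adjusted p = 0.0373). Its groups did not overlap, but the call was lost with DESeq2 (adjusted p = 0.0559), with quantile normalization (0.0643), with a replicate block (0.0617), without WT replicate 1 (0.157), without KO replicate 1 (0.143) and without KO replicate 2 (0.0995).

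Upstream sequences of the isoforms at the 2 ends are shown because both genes serve the same enzyme and lay at opposite ends of the set. They come from the 250 bases before each gene's start in RefSeq (GRCm38.p6), leaving out bases that any annotated exon covers, and are written 5′ to 3′ on the gene's strand with CCAAT boxes of either strand in capitals. The Cox7a1 stretch lies at chr7:30183921-30184143, plus strand, and ends 28 bases before the start, and that of Cox6b2 lies at chr7:4753095-4753225, minus strand, and ends next to the start.
Cox7a1 upstream: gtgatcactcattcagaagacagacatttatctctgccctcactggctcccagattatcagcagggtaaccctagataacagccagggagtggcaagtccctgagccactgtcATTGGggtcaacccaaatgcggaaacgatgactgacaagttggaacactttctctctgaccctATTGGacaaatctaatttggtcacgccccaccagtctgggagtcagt
Cox6b2 upstream: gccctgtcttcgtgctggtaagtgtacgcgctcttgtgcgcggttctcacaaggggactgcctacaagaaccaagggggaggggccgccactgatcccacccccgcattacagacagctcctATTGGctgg
The Cox7a1 stretch holds 2 CCAAT boxes and the Cox6b2 stretch holds 1, all on the opposite strand and written ATTGG here. The whole promoter windows, which include the exon bases left out here and those after the start, hold 2 for Cox7a1 and 3 for Cox6b2. The box in the Cox6b2 stretch lies 9 to 5 bases before the start, and the nearer one of Cox7a1 lies 74 to 70 bases before it. Neither gene's whole promoter window holds a match to the NRF1, ERR, GABPA or YY1 letters given below, which says nothing about binding of these factors.

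The tissue isoforms were also set against their general partners within each library, per kilobase of the principal GENCODE vM21 transcript. Cox7a1 was 33.8% and 37.4% of Cox7a2 in the KO-labelled libraries, against 73.6% and 66.9% in the WT-labelled libraries. Cox7a2 had the lowest mean level per kilobase of the 10 general subunits (688 under the KO label and 1176 under the WT label). The next was Cox7c (1171 and 1728), and Cox4i1 had the highest (19818 and 34067). Whether reads of Cox7a2 were lost was not tested, so the size of these percentages is uncertain. Cox6b2 was 8.93% and 8.99% of Cox6b1 in the KO-labelled libraries, against 3.77% and 3.66% in the WT-labelled libraries, a 2.41-fold higher mean ratio. Cox4i2 was 0.340% and 0.585% of Cox4i1, against 0.704% and 0.604%, where KO replicate 2 lay below the WT-labelled pair by less than the gap within that pair. For each of these ratios the KO-labelled values lay on 1 side of the WT-labelled ones, and an exact two-sided permutation test of 2 against 2 gave p = 0.333, the smallest it allows.

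The tissue isoforms were read beside markers of the cells they are known from. Cox4i2 and Ndufa4l2 are known as genes of pericytes, the contractile cells around capillaries. In a pericyte list that was added after the values were seen, Higd1b had 26.8 and 22.6 counts in the KO-labelled libraries, against 136 and 142 in the WT-labelled libraries (log2 difference -2.45, SE 0.27, adjusted p = 0.000382). Abcc9, Rgs5 and Kcnj8 were lower too (-1.47, -1.38 and -0.54), Cspg4 was higher (0.54), and Notch3 and Pdgfrb were not called (-0.03 and 0.14). Over the 7 genes the sum was 18725 and 17938 counts in the KO-labelled libraries, against 20770 and 20080 in the WT-labelled libraries. The largest part of each sum came from Pdgfrb (11089 and 10399, against 9972 and 9582), which is also in the fibroblast and pericyte list. The part of pericytes in the fall of the isoforms was not tested. Striated muscle markers were low, with Ckm and Myl1 at 3.77 counts or less in each library, and the sum of the 8 (1378 and 1286, against 1189 and 1348) came mostly from Des, which vessel walls also express; of the 2 tested none was called.

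The other 4 tissue isoforms were too low to test. Cox6a2, a heart and muscle form, had 9.65 and 9.42 counts in the KO-labelled libraries, against 7.88 and 7.95 in the WT-labelled libraries. Cox8b, known from heart, muscle and brown fat, had 0 and 11.3, against 0.985 and 2.98, and its level in KO replicate 2 stood with Ucp1, the uncoupling protein of brown fat. Ucp1 had 9.65 and 112 counts in the KO-labelled libraries, against 1.97 and 32.8 in the WT-labelled libraries, and Plin1 and Adipoq were also highest in KO replicate 2 (18.8 and 12.2 counts). Of the 6 brown fat markers 4 were tested, with 2 higher and 1 lower. Dio2 had 1466 and 1976 counts in the KO-labelled libraries, against 73.9 and 95.4 in the WT-labelled libraries. Fabp4, which endothelium also expresses, had 927 and 1098, against 9392 and 7873. The 6 markers summed to 2419.7 and 3248, against 9480.1 and 8019, mostly from Dio2 under the KO label and Fabp4 under the WT label. Their part in the values of Cox8b and Cox7a1 was not tested. Cox7b2 had at most 2.83 counts, and Cox8c, known from testis, had 0 reads in all 4 libraries, which allows up to 3 reads in each.

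Cox7a2l, a relative of the 7a subunits that joins complexes III and IV into supercomplexes, was the 1 member of this family that did not pass. It had 4076 and 3582 counts in the KO-labelled libraries, against 4430.3 and 4335 in the WT-labelled libraries (log2 difference -0.20, SE 0.09, adjusted p = 0.101). The KO-labelled values lay below both others without passing the test. Per kilobase it was 515% and 520% of Cox7a2 in the KO-labelled libraries, against 398% and 306% in the WT-labelled libraries. The low level of Cox7a2 given above makes the size of this ratio uncertain as well.

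ATP synthase was lower in 16 of 17 members, with a median of -0.87. In the F1 part, which makes ATP, 5 of 5 were lower (median -0.86). The catalytic beta subunit, Atp5b, had 56468 and 52495 counts in the KO-labelled libraries, against 112321 and 129382 in the WT-labelled libraries (log2 difference -1.15, SE 0.12, adjusted p = 0.000291). The alpha subunit, Atp5a1, had 47238 and 42729, against 84771 and 96145 (log2 difference -1.01, SE 0.11, adjusted p = 0.000437). Their means were 2.22-fold and 2.01-fold lower, and in both genes the groups did not overlap. The gamma, delta and epsilon subunits of the rotor, Atp5c1, Atp5d and Atp5e, had log2 differences of -0.86, -0.59 and -0.56 (adjusted p = 0.000329, 0.00316 and 0.00922, limma), and Atp5e lost its call without a variance trend (0.0591). In the stalk that holds F1 still, 4 of 4 were lower (median -0.93), from Atp5pb at -0.97 to Atp5o at -0.87. In the membrane part, 5 of 5 were lower (median -0.75), from Atp5k, subunit e of the dimer, at -0.97 to Atp5mpl at -0.64.

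The c ring, which turns as protons pass, is built of 1 protein that 3 genes encode with different import signals, and 2 of these genes were lower while the other did not pass. Atp5g1, now named Atp5mc1 (Entrez 11951, chr11:96072793-96075694), had 1592 and 1275 counts in the KO-labelled libraries, against 2913 and 3852 in the WT-labelled libraries (log2 difference -1.23, SE 0.16, adjusted p = 0.000799). Atp5g3, now Atp5mc3 (Entrez 228033, chr2:73908447-73912464), had 12234 and 11012, against 22864 and 25954 (log2 difference -1.07, SE 0.10, adjusted p = 0.000188). Both had groups far apart. Atp5g2, now Atp5mc2 (Entrez 67942, chr15:102662868-102671047), had 1495 and 1484 counts in the KO-labelled libraries, against 1478 and 1813 in the WT-labelled libraries (log2 difference -0.14, SE 0.12, adjusted p = 0.358). Its KO-labelled values lay between the WT-labelled ones, and without WT replicate 2 the log2 difference was 0.0108. Of its 50-base windows, 38.4% are shared with other genes' transcripts, so its counts are less certain than those of Atp5g3, for which none are. The level of Atp5g2 per kilobase was 19.8% and 21.8% of that of Atp5g3 in the KO-labelled libraries, against 10.5% and 11.3% in the WT-labelled libraries, a 1.91-fold higher mean ratio (exact two-sided permutation p = 0.333, the smallest possible).

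Upstream sequences of the 3 genes are shown because they feed the same ring and hold different motif letters. They were cut in the same way from the 250 bases before each start (RefSeq, GRCm38.p6), 5′ to 3′ on the gene's strand, and lie at chr11:96075695-96075881, minus strand, for Atp5g1, at chr15:102671128-102671297, minus strand, for Atp5g2 and at chr2:73911327-73911576, minus strand, for Atp5g3. The Atp5g3 stretch lies before 1 of the gene's starts and inside its annotated span. For Atp5g2 a site of 30 bases nearer to the start, at chr15:102671070-102671099, is given apart. Capitals mark matches to the NRF1 letters (GCGCA, any base, then GCGC), the ERR letters TNAAGGTCA and CCAAT, on either strand.
Atp5g1 upstream: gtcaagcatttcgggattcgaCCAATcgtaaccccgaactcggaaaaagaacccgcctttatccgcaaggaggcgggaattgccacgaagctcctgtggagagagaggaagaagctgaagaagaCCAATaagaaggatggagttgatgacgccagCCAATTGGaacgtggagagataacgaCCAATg
Atp5g2 upstream: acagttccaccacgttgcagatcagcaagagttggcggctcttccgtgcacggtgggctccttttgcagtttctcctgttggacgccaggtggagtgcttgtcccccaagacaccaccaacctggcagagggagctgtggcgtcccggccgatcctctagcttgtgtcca
Atp5g2 site: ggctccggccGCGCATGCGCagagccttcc
Atp5g3 upstream: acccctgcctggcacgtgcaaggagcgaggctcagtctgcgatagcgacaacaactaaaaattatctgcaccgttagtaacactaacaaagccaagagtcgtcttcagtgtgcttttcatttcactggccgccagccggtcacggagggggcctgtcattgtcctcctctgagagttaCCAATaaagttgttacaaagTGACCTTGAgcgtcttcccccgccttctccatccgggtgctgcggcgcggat
The Atp5g1 stretch holds 5 CCAAT boxes, of which 2 on opposite strands overlap. Atp5g2 holds 1 NRF1 match, a palindrome that reads on both strands, 42 to 33 bases before the start, and no CCAAT box. The Atp5g3 stretch holds 1 ERR match on the opposite strand, 52 to 44 bases before the start, and 1 CCAAT box 72 to 68 bases before it, and its whole promoter window, which runs 50 bases past the start, also holds 1 NRF1 match. A match is a run of letters and does not show that a factor binds there.

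The inhibitor of ATP synthase was higher in the main test. Atpif1, now Atp5if1, encodes IF1, which binds F1 and blocks ATP hydrolysis when the proton gradient fails. Its symbol in the gene table does not start with Atp5, so it is not among the 89. It had 5113 and 5010.2 counts in the KO-labelled libraries, against 3507 and 4356 in the WT-labelled libraries (log2 difference 0.37, SE 0.11, adjusted p = 0.0275). Its groups did not overlap, but the call was lost without KO replicate 1 (adjusted p = 0.0886), without KO replicate 2 (0.0641), without WT replicate 1 (0.0981), with no filter on low genes (0.0519) and without a variance trend (0.104). Atp5b, the subunit it binds, was lower (log2 difference -1.15), so the ratio of Atpif1 to Atp5b adds both changes. Per kilobase Atpif1 was 32.2% and 33.9% of Atp5b in the KO-labelled libraries, against 11.1% and 11.97% in the WT-labelled libraries, a 2.87-fold higher mean ratio (exact two-sided permutation p = 0.333, the smallest possible).

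**Figure D3:**
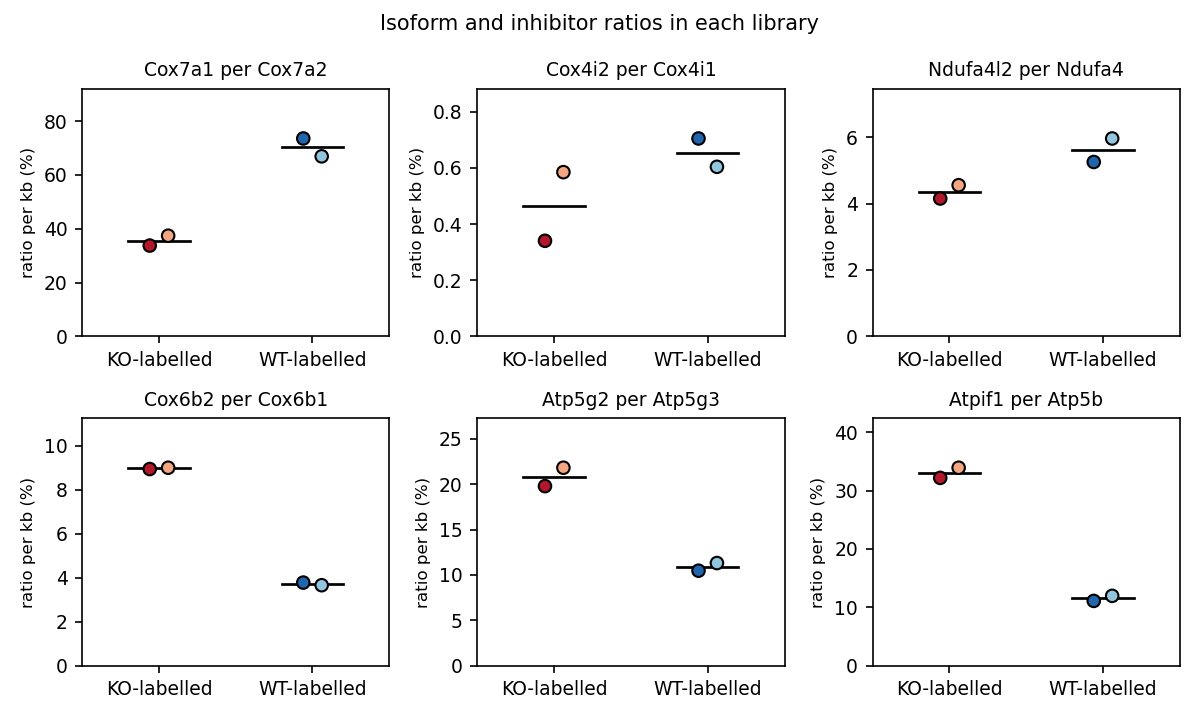
Ratio of 2 genes' levels per kilobase, in percent, in each library (KO-labelled left, WT-labelled right; darker points are replicate 1, bars are means of 2 libraries). Relative to their general partners Cox7a1 was lower and Cox6b2 higher in both KO-labelled libraries, and Atp5g2 per Atp5g3 (19.8% and 21.8%, against 10.5% and 11.3%) and Atpif1 per Atp5b were higher in both KO-labelled libraries.

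The subunits encoded by mitochondrial DNA are the partners of these genes in complexes I, III, IV and ATP synthase. All 13 were in the table, and this list was added after the values were seen. Of the 11 tested, 8 were lower and none was higher, with a median of -0.96. COX1, the catalytic subunit of complex IV, had 174100 and 165216 counts in the KO-labelled libraries, against 340096 and 319893 in the WT-labelled libraries (log2 difference -0.96, SE 0.13, adjusted p = 0.00112). CYTB, the cytochrome b of complex III, had 133530 and 129448, against 297006 and 277323 (log2 difference -1.13, SE 0.13, adjusted p = 0.000443). ND2, a membrane subunit of complex I, had 42692 and 42884, against 104479 and 103414 (log2 difference -1.28, SE 0.10, adjusted p = 7.84e-05). All 3 had groups far apart. COX2, COX3, ATP6, ATP8, ND3 and ND4L had at most 76.5 counts in any library, although they lie on the same mitochondrial DNA as COX1, and how reads were assigned to them is not given in the sources used here. The 13 genes took 1.49% and 1.46% of the KO-labelled libraries, against 3.02% and 2.83% of the WT-labelled libraries. Their summed level was 2.05-fold lower, beside 1.89-fold for the 89 nuclear genes.

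Assembly factors, which build the complexes without staying in them, were lower in part. For complex I, 10 of 16 were lower and none was higher (median -0.40), or 6 of 16 without WT replicate 2. The largest falls were those of Foxred1 (-1.13, adjusted p = 0.000164, limma) and Ndufaf4 (-0.80, adjusted p = 0.000399). For complexes II and III, 3 of 10 were lower (median -0.18), a share close to the 24.9% over all genes, and 2 of 10 whenever 1 library was left out. Lyrm7, a chaperone of the Rieske protein, had -1.10 and Uqcc1 had -0.69. The 7 of this list that were not called had log2 differences from -0.30 to 0.11. For complex IV, 14 of 22 tested were lower (median -0.40), or 7 without WT replicate 2 and 9 without KO replicate 2. Cox11, a copper-delivery factor, had -1.005 and Cmc2 had -0.89. For ATP synthase 4 of 4 were lower (median -0.61), led by Fmc1 (-1.001) and Tmem70 (-0.68), which helps build the c ring. The 82 members had a median of -0.81; whether factors and subunits differed was not tested.

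The enzymes that feed electrons to the chain were all lower. In the tricarboxylic acid cycle 13 of 13 genes fell, with a median of -0.97. Idh3a, of the NAD-dependent isocitrate dehydrogenase, had 5877 and 4812 counts in the KO-labelled libraries, against 12526 and 13796 in the WT-labelled libraries (log2 difference -1.31, SE 0.11, adjusted p = 0.000136). Genes of outer membrane channels, protein import and chaperones were lower in 8 of 14 (median -0.28), or in 5 without KO replicate 2. The largest falls there were those of Phb, a prohibitin (-0.80), and Hspa9, the import motor chaperone (-0.78). Tomm70a and Tomm22, receptors of protein import, had log2 differences of 0.00280 and -0.02 and were not called.

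**Figure D4:**
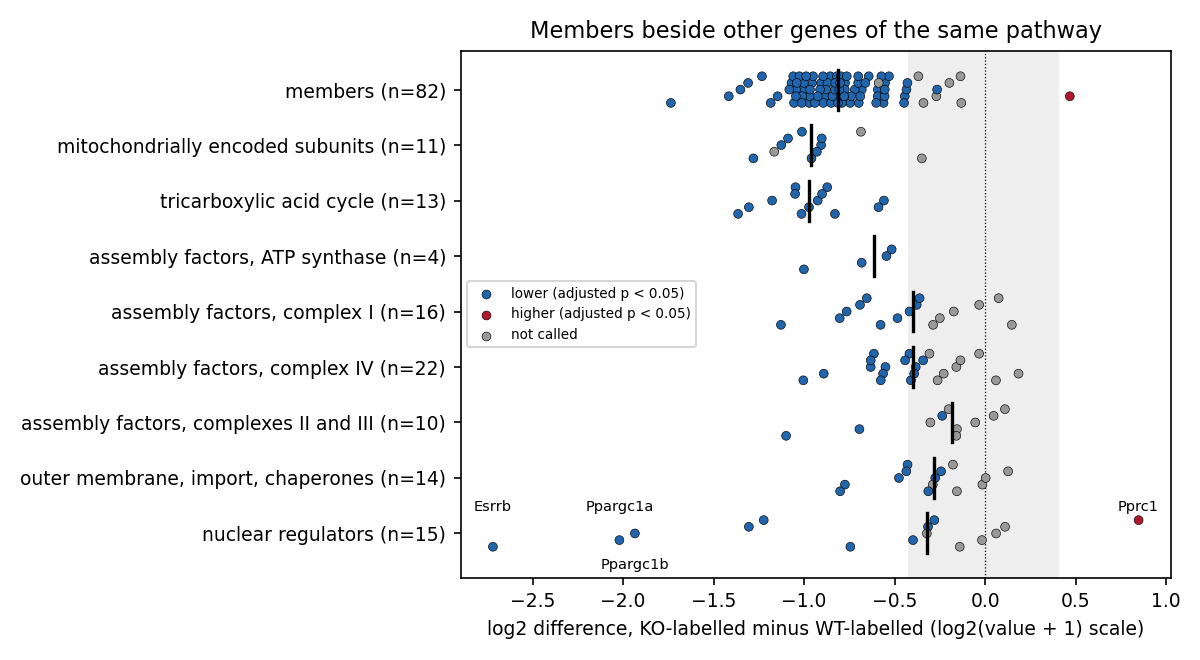
Log2 difference (KO-labelled minus WT-labelled) of the members and of other mitochondrial gene lists. Each point is 1 gene, bars are list medians, the grey band spans the quartiles of all genes tested, and the medians run from -0.97 (tricarboxylic acid cycle) to -0.18 (assembly factors of complexes II and III).

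Of 15 nuclear regulators of respiratory genes, 9 were lower, 1 was higher and 5 did not pass (median -0.32). Ppargc1a encodes PGC-1-alpha, a coactivator known to raise the transcription of many of the members. It had 3062 and 2839.6 counts in the KO-labelled libraries, against 12918 and 11089.9 in the WT-labelled libraries (log2 difference -2.02, SE 0.10, adjusted p = 1.56e-05). Esrrb, an orphan nuclear receptor of the estrogen-related family through which such coactivators act, had 1604 and 1135, against 8338 and 9484 (log2 difference -2.72, SE 0.16, adjusted p = 3.24e-05). In both genes the groups were far apart. Ppargc1b had 152 and 147, against 691 and 478 (log2 difference -1.94, SE 0.21, adjusted p = 0.000347), and the related receptors Esrra and Esrrg had -1.31 and -1.22. Pprc1, another coactivator of the family, had 2706 and 2379.8 counts in the KO-labelled libraries, against 1349 and 1473 in the WT-labelled libraries (log2 difference 0.85, SE 0.10, adjusted p = 0.000566) and rose. Nrf1, the regulator that binds the NRF1 letters, had 1571 and 1438, against 1376 and 1509.9 (log2 difference 0.06, SE 0.10, adjusted p = 0.635). Tfam, which packages and transcribes mitochondrial DNA, fell by 0.40 on the log2 scale (adjusted p = 0.00885), and Polrmt, the mitochondrial RNA polymerase, by 0.74 (adjusted p = 0.000494).

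What the members share upstream was read from RefSeq promoter windows of 250 bases before to 50 bases after the start (GRCm38.p6), on both strands. Such a window was found for 71 of the 89 members and for 27025 genes in all. The NRF1 letters (GCGCA, any base, then GCGC) occurred in 17 members (23.9%), against 5.19% of all genes. The GABPA letters CCGGAAG occurred in 17 (23.9%), against 9.93%, and the YY1 letters AANATGGCG in 10 (14.1%), against 2.76%. The ERR letters TNAAGGTCA occurred in 3 (4.23%), which were Atp5g3, Ndufb4 and Sdhd, against 1.43%. CCAAT occurred in 31 (43.7%), against 41.1%. The NRF1, GABPA, YY1 and ERR letters were thus more frequent among the members than over all genes, and CCAAT was about as frequent. The tested members with an NRF1 match had a median log2 difference of -0.87 and 15 of 17 were lower, beside -0.78 and 45 of 50 without one. With GABPA letters 16 of 16 were lower (median -0.82), beside 44 of 51 without them (median -0.77). With YY1 letters 9 of 10 were lower (median -0.75), beside 51 of 57 without them (median -0.81), so the medians stood the other way round. With ERR letters 3 of 3 were lower (median -1.03), beside 57 of 64 without them (median -0.79), and with CCAAT 29 of 30 were lower (median -0.81), beside 31 of 37 without it (median -0.79). These are descriptions of letters in a window, with no test.

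Sequence shared between genes bears on how far single counts can be read. Of the members, 24 share over 10% of their 50-base windows with transcripts of other genes; the 23 of these that were tested had a median log2 difference of -0.82, beside -0.81 for 57 tested members at or under 10%. The spans of 29 members overlap another annotated gene, such as Cox4i2 with Bcl2l1, Atp5j with Gabpa and Ndufa4l2 with Shmt2. Whether counting used strand is not given in the sources used here, so reads of such pairs may have been shared.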

How the data were processed

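Total RNA of the medulla was isolated with a Qiagen kit, and libraries were prepared and sequenced (Illumina) by Eurofins GATC Biotech, per the labels' protocols. The submitters' processing notes name, without their roles, HISAT2 2.2.1, featureCounts 2.0.1, fastp 0.20.1 and DESeq2 2.11.40.7, on mm10 or GRCm38, with annotation, strand setting and the treatment of multiply mapped reads not given in the sources used here. The deposited signal values are gene read counts divided by 1 size factor per library, read from the values: divided by the column's step, 100% were whole within 0.001, and the recovered reads were 36482238 to 40784436 per library. Intervals and floors cover counting error only.

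Entrez IDs were matched to a RefSeq gene table of GRCm38.p6; 25301 of 27179 rows had a symbol, 26 of them through a former ID (Ndufb1 among the members), and the rows without one held 0.322% to 0.336% of the reads. The main test was a two-sided limma fit (version 3.58.1, R 4.3.3) to log2(value + 1), with the variance trend, for genes with a mean of at least 10, which understates changes of low genes; it had 2 residual degrees of freedom, 6.96 after pooling. It was tested on simulated data. edgeR 4.0.16 (quasi-likelihood) and DESeq2 1.42.0 were run on the recovered reads, beside other pseudocounts, filters, scalings, variance models, a replicate block and leaving out each library. The chi-square per degree of freedom between replicates was 17.0 (KO-labelled) and 22.5 (WT-labelled), above the sampling noise in both groups.

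Members and lists were chosen with earlier results of these data known. Named are all members of complexes II and III, cytochrome c, complex I core subunits, isoforms with their partners, F1, the c ring and the inhibitor, the extremes of each other role, members that rose or did not pass, and of other lists the 2 largest rises and falls that passed; others (Cox5a, Ndufa4 genes, Hif1a, Nrf1, the other regulators, import receptors, markers and overlapping genes) were chosen after their values were seen. Not every gene that fits the rule is reported here. Windows of 50 bases came from GENCODE vM21 transcripts.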

Additional observations from a re-analysis of the deposited data

How the results depend on the processing

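The results were compared over 15 alternatives. Among those that kept every library, the count of lower members ran from 70 (no variance trend) to 76 (DESeq2). The median log2 difference ran from -0.94 to -0.73 when 1 library was left out. The count of higher members was 0 with DESeq2, quantile normalization and the replicate block, and 0 to 1 when 1 library was left out. Of 810 comparisons of 54 named genes with an alternative, 780 kept direction and side of the threshold, 19 lost the call, 8 gained it and 3 reversed, all without WT replicate 2: Atp5g2 (0.0108), Ndufa12 (0.126) and Ndufa2 (0.0118). When 1 library was left out, Atp5g2 ran from -0.28 to 0.0108, Ndufa12 from -0.81 to 0.126 and Ndufa2 from -0.28 to 0.0118. Of 255 counts by complex or list, 9 moved by over 1.5 times, all in lists of other genes; beside those given above, the variance model did so for assembly factors of complex IV (9 lower), import genes (4) and supercomplex factors (3). The cause of these changes was not tested. With the replicate block 73 members were lower and Sdhc and Cox6b2 lost their calls. The numbers were not taken as pairs, since the labels do not say that equal numbers share a litter or day. Over the genes tested, same-numbered libraries did not deviate together (correlation -0.056). With 2 libraries a group, the exact tests of ratios could not pass 0.05, and genes under a mean of 10 were not tested.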

Other observations

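The 5 pseudogene rows that were left out of the members held reads of their own. Ndufs6b, named after the complex I subunit Ndufs6, had 189.8 and 175 normalized counts in the KO-labelled libraries, against 274 and 306 in the WT-labelled ones. Atp5c1-ps, named after the gamma subunit of ATP synthase, had 125 and 126, against 250.2 and 274. In both the KO-labelled values were below the WT-labelled ones, as in the genes they are named after. Ndufs5-ps differed between the replicates of both groups, with 117 and 11.3 counts under the KO label, against 18.7 and 166 under the WT label. Ndufa11b and Uqcrh-ps1 had at most 50.7 counts in any library. These rows can hold reads of their parent genes, and that was not tested.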
